A study of Homo sapiens with 12 samples.

Results

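The 6 mRNAs described here encode heterogeneous nuclear ribonucleoproteins (hnRNPs) and are those of HNRNPA0, HNRNPA2B1, HNRNPAB, HNRNPC, HNRNPH3 and PTBP1. They were taken by gene name from a table of RNA sites crosslinked to the translation initiation factor eIF3 in 293T cells, a human line derived from embryonic kidney and carrying a viral oncogene, and are 6 of the 479 genes of that table. PAR-CLIP was used, in which cells build 4-thiouridine into their RNA. Ultraviolet light links this base to a protein in contact with it, and reverse transcription then turns it into a T-to-C change in the reads. All 12 libraries came from cells given 100 µM 4-thiouridine for 14 h and crosslinked at 0.15 J per square cm. In all of them eIF3 was pulled down through an antibody against its subunit eIF3b. They form 4 groups of 3 replicates, for eIF3a, eIF3b, eIF3d and eIF3g, with no untreated or mock group, and the labels do not say whether replicates were separate cultures. Each line of the table is a cluster of crosslinked reads in 1 subunit, pooled over its replicates, so the spread between libraries is unknown for every value and no difference between subunits was tested. Intervals are 95% exact Poisson intervals for reads and Wilson intervals for shares. They allow for counting error only and treat each read, or each site in a share of sites, as independent. Sequenced copies are not independent molecules, so intervals on reads may be too narrow even for counting error.

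The hnRNPs coat nascent transcripts in the nucleus and shape their splicing, export, stability and translation. Most carry several RNA-binding domains, many move between nucleus and cytoplasm, and several adjust the processing of their own mRNA. The factor eIF3 brings the small ribosomal subunit to mRNA, and eIF3a, eIF3b, eIF3d and eIF3g are subunits of it. A cluster in a 5′ UTR therefore lies in the stretch that the scanning small subunit passes before the start codon.

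The bases at which these mRNAs begin are shown because every cluster of the 6 genes lay in the 5′ UTR. The sequences of the clusters themselves are in hg19 coordinates and were not analysed here. Each line gives, from RefSeq for the assembly GRCh38.p14, 15 bases before the annotated start in lower case and the first 15 transcribed bases in capitals, written 5′ to 3′ with T for U.
HNRNPA0: cgcgcgttcagcggcCTCTTTGTGTGGTGC
HNRNPA2B1: agcggctctagcggcAGTAGCAGCAGCGCC
HNRNPAB: cgagtcggcattgtcAGGCGGCGGCACCGC
HNRNPC: cttcgcctcggcggcAGAGGAGACTCGGGG
HNRNPH3 start 1: cagggcggggccctcACAGAATTTGTTCAC
HNRNPH3 start 2: ccatccccccaagccAGTAGCTGTGCTGCG
HNRNPH3 start 3: ctgcgagtgacttctGACGCAGATTCCCAA
PTBP1 start 1: gggtcggttcctgctATTCCGGCGCCTCCA
PTBP1 start 2: tttcccgccgcccggACTCTGCCCCCGGCG
HNRNPA0 began with C, as did 11.4% of 22199 annotated starts of protein-coding genes, and the others began with A or G, the first base of 50.1% and 36.2% of starts. Uridines, the bases at which 4-thiouridine can crosslink, numbered 9 or 10 in the first 50 transcribed bases of HNRNPA0, HNRNPA2B1, HNRNPAB and HNRNPC, against a median of 9 over all starts. PTBP1 had 12 at its first start and 3 at its second, and HNRNPH3 had 10, 11 and 5. Which start was in use in these cells, and where the clusters lie from it, was not determined.

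The table held 1477 clusters in 558 sites, a site being clusters of 1 or more subunits on the same strand that overlap by at least 1 nt. Reads in clusters ran from 15132 in eIF3a to 62405 in eIF3g, and those in 5′ UTR clusters from 8397 in eIF3b to 12759 in eIF3g. Depth per library is unknown, and reads and their intervals below are not scaled. No cluster had fewer than 8 reads. None of 8 genes associated with the 293T line and none of 7 markers of other cell types had a cluster, so the cell type could not be checked.

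The 6 hnRNP genes had 28 clusters in 9 sites with 845 reads. HNRNPA0, HNRNPA2B1, HNRNPAB and HNRNPC were listed for all 4 subunits, as were 33.6% of the genes of the table. PTBP1 was listed for eIF3b, eIF3d and eIF3g, and HNRNPH3 for eIF3a and eIF3d. Counted by subunit, 5 of the 6 genes were listed in eIF3a, where 68.5% of all genes of the table were, and 5 in eIF3b, where 55.1% were. All 6 were listed in eIF3d and 5 in eIF3g, where 74.3% and 73.3% of all genes were. All 28 clusters were annotated as 5′ UTR, against 67.8% of all clusters of the table, and none lay in coding exons, introns or 3′ UTRs. Of all genes, 67.8% had every cluster in the 5′ UTR. HNRNPA0, HNRNPAB and PTBP1 had 2 sites each, and 11.9% of all genes had 2 or more. The genes were chosen because they were in the table, so these shares are a description and not a test.

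**Figure D1:**
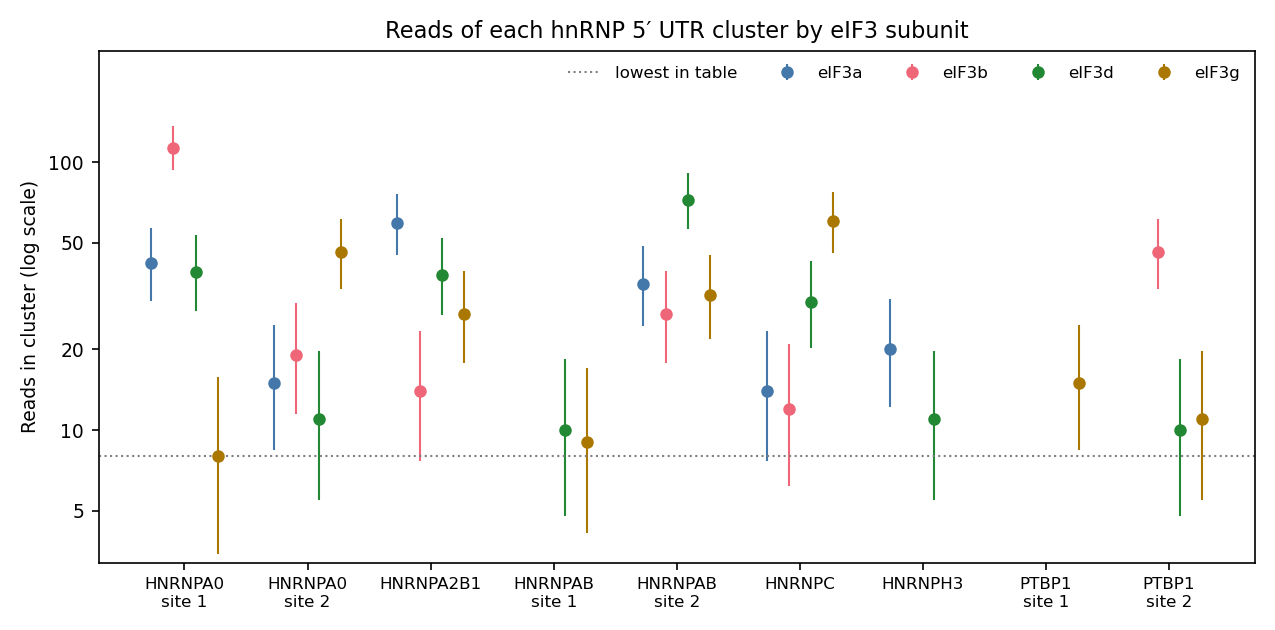
Reads in each cluster (log axis) at the 9 hnRNP sites, with 95% exact Poisson intervals as bars, by subunit; sites are numbered from the 5′ end of the gene and the dotted line is the lowest read number in the table. The highest point is eIF3b at HNRNPA0 site 1 with 113 reads, and the highest subunit changes from gene to gene.

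HNRNPA0, an A/B-type hnRNP that binds AU-rich elements and affects mRNA stability, had the most reads of the 6, with 293 summed over its clusters (rank 56 of 479 genes). Its sites lie on chromosome 5, minus strand, at hg19 positions 137089958 to 137089985 (site 1, nearer the 5′ end) and 137089820 to 137089876 (site 2). Site 1 held 113 reads in eIF3b (93.1 to 135.9), 42 in eIF3a (30.3 to 56.8) and 39 in eIF3d (27.7 to 53.3). In eIF3g it held 8 (3.45 to 15.8). The eIF3b value stood above the intervals of the others and the eIF3g value below them. Site 2 held 46 reads in eIF3g (33.7 to 61.4), 19 in eIF3b (11.4 to 29.7), 15 in eIF3a (8.39 to 24.7) and 11 in eIF3d (5.49 to 19.7), and here the eIF3g interval lay above the others. As a share of all cluster reads of a subunit, site 2 had 0.0737% in eIF3g and 0.0991% in eIF3a, so eIF3g did not lead on that scale. As a share of reads in 5′ UTR clusters it led with 0.36%, against 0.226% in eIF3b, the next. The gene thus had most of its reads at site 1 in eIF3a, eIF3b and eIF3d and at site 2 in eIF3g.

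The split between the sites of a gene does not depend on the depth of a subunit's libraries. Site 1 held 85.6% of HNRNPA0 reads in eIF3b (Wilson interval 78.6 to 90.6), 78.0% in eIF3d (64.8 to 87.2), 73.7% in eIF3a (61.0 to 83.4) and 14.8% in eIF3g (7.70 to 26.6). The eIF3g interval lay apart from the other three. Counted by T-to-C conversions in place of reads, a measure added after seeing the data, site 1 held 20.3% in eIF3g. Of the 7 genes with exactly 2 sites that were both listed in all 4 subunits, HNRNPA0 had the widest difference between subunits, 70.8 percentage points, and RHOA, a small GTPase that organises actin, had the next with 51.9. U2AF2, the splicing factor subunit that binds polypyrimidine tracts, had the narrowest with 22.3. The site with more reads was not the same in every subunit for 4 of these 7 genes (57.1%), so the change of leading site was no feature of HNRNPA0 alone. The 8 reads of eIF3g at site 1 are at the lowest number the table holds. At site 2 the eIF3d cluster ran from 137089820 to 137089847 and shared 4 nt with the clusters of the other subunits, which all ran from 137089843 to 137089876. HNRNPA0 is therefore among these 7 genes only because clusters that overlap by 1 nt or more were joined.

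**Figure D2:**
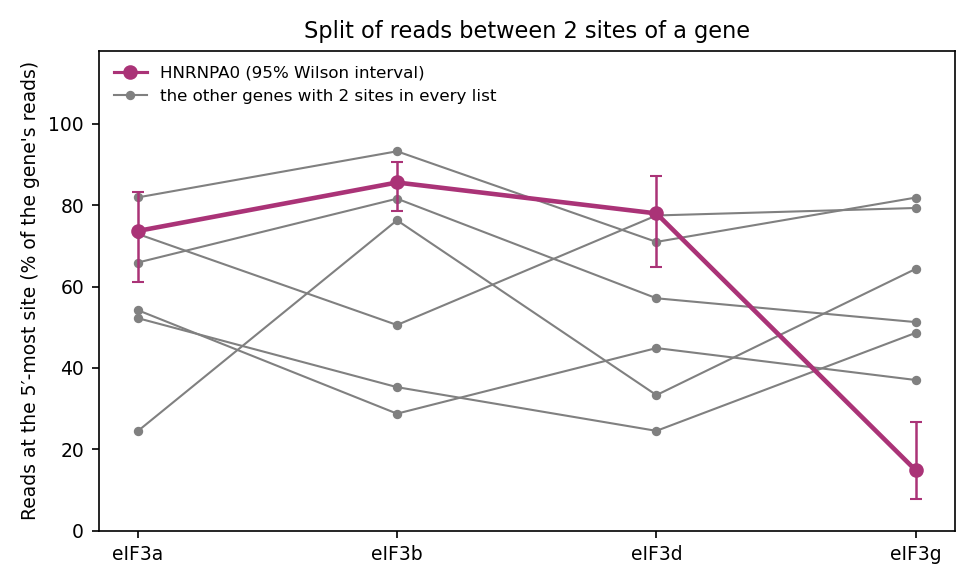
Percent of a gene's reads at its 5′-most site in each subunit, for the 7 genes with 2 sites listed in all 4 subunits; each line joins the values of 1 gene, and bars are 95% Wilson intervals for HNRNPA0. HNRNPA0 goes from 85.6% in eIF3b to 14.8% in eIF3g.

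HNRNPA2B1, an A/B-type hnRNP with roles in splicing, RNA transport and microRNA processing, had 1 site, on chromosome 7, minus strand, from 26240231 to 26240252. It held 59 reads in eIF3a (44.9 to 76.1), 38 in eIF3d (26.9 to 52.2), 27 in eIF3g (17.8 to 39.3) and 14 in eIF3b (7.65 to 23.5). The eIF3a and eIF3b intervals did not overlap. The log2 difference of eIF3b from eIF3a, on log2(reads + 1), was -2.00. It stood at percentile 3.28 of the 229 sites shared by these subunits, whose median was -0.26.

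HNRNPAB, an A/B-type hnRNP that binds single-stranded nucleic acids, had 185 reads on chromosome 5, plus strand. Site 2, from 177631673 to 177631698, held 72 reads in eIF3d (56.3 to 90.7), 35 in eIF3a (24.4 to 48.7), 32 in eIF3g (21.9 to 45.2) and 27 in eIF3b (17.8 to 39.3). The unscaled eIF3d value stood above the intervals of the others, which overlapped each other. As a share of all cluster reads of a subunit, site 2 had 0.298% in eIF3d and 0.231% in eIF3a, a smaller lead. Whether eIF3d stood apart from eIF3a on that scale was not determined. As a share of reads in 5′ UTR clusters it had 0.599% in eIF3d and 0.356% in eIF3a. Site 1, from 177631580 to 177631600, was listed for eIF3d with 10 reads and for eIF3g with 9. Both are near the lowest number of the table. Of 175 sites with 5 to 20 reads in eIF3d, 59.4% (Wilson interval 52.0 to 66.4) were listed in eIF3a, so a weak site missing from another list was frequent.

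HNRNPC, the core hnRNP that packages nascent RNA and binds uridine tracts, had 1 site, on chromosome 14, minus strand, from 21731889 to 21731913. It held 60 reads in eIF3g (45.8 to 77.2), 30 in eIF3d (20.2 to 42.8), 14 in eIF3a (7.65 to 23.5) and 12 in eIF3b (6.20 to 21.0). The eIF3g interval lay above all others, and those of eIF3d, eIF3a and eIF3b overlapped. The log2 difference of eIF3g from eIF3a was 2.02, at percentile 93.1 of 284 shared sites with a median of 0. From eIF3b it was 2.23, at percentile 91.6 of 233 shared sites with a median of 0.21. Scaled by all cluster reads of a subunit, the difference of eIF3g was 0.53 from eIF3b, -0.02 from eIF3a and -0.39 from eIF3d, so that eIF3d and not eIF3g led. Scaled by reads in 5′ UTR clusters it was 1.63, 1.65 and 0.89, and eIF3g led.

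HNRNPH3, a member of the F/H group that binds G-rich sequences, had the fewest reads, 31, at 1 site on chromosome 10, plus strand, from 70091904 to 70091935. It held 20 reads in eIF3a (12.2 to 30.9) and 11 in eIF3d (5.49 to 19.7), and these intervals overlapped. The eIF3d cluster started 6 nt upstream of the eIF3a cluster, and 17 nt were common to both. Of 247 sites with 10 to 40 reads in eIF3a, 55.5% (Wilson interval 49.2 to 61.5) were listed in eIF3b and 72.1% (66.2 to 77.3) in eIF3g. For a site of this strength absence from eIF3g was thus the less frequent case. Absence from eIF3b was frequent, and the interval does not settle whether listing or absence there was the more frequent case.

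PTBP1, the polypyrimidine tract-binding protein that represses exons and also takes part in translation driven by internal ribosome entry sites, had 82 reads on chromosome 19, plus strand. Site 2, from 797450 to 797485, held 46 reads in eIF3b (33.7 to 61.4), 11 in eIF3g (5.49 to 19.7) and 10 in eIF3d (4.79 to 18.4). The eIF3b interval lay above the other pair, which overlapped. From eIF3b the log2 difference was -2.10 in eIF3d, at percentile 5.87 of 230 shared sites with a median of 0.35. In eIF3g it was -1.97, at percentile 7.08 of 233. Site 1, from 797418 to 797441, was listed for eIF3g alone, with 15 reads (8.39 to 24.7), and held 57.7% of the eIF3g reads of the gene (Wilson interval 39.0 to 74.5). PTBP1 had no cluster in eIF3a. Of 87 sites with 23 to 92 reads in eIF3b, 87.4% (Wilson interval 78.8 to 92.8) were listed in eIF3a, so for a site of this strength absence from eIF3a was the less frequent case. For site 1 a like count gave 53.3% (47.4 to 59.2) of 272 sites with 7.5 to 30 reads in eIF3g listed in eIF3b, so absence of so weak a site from eIF3b was frequent.

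**Figure D3:**
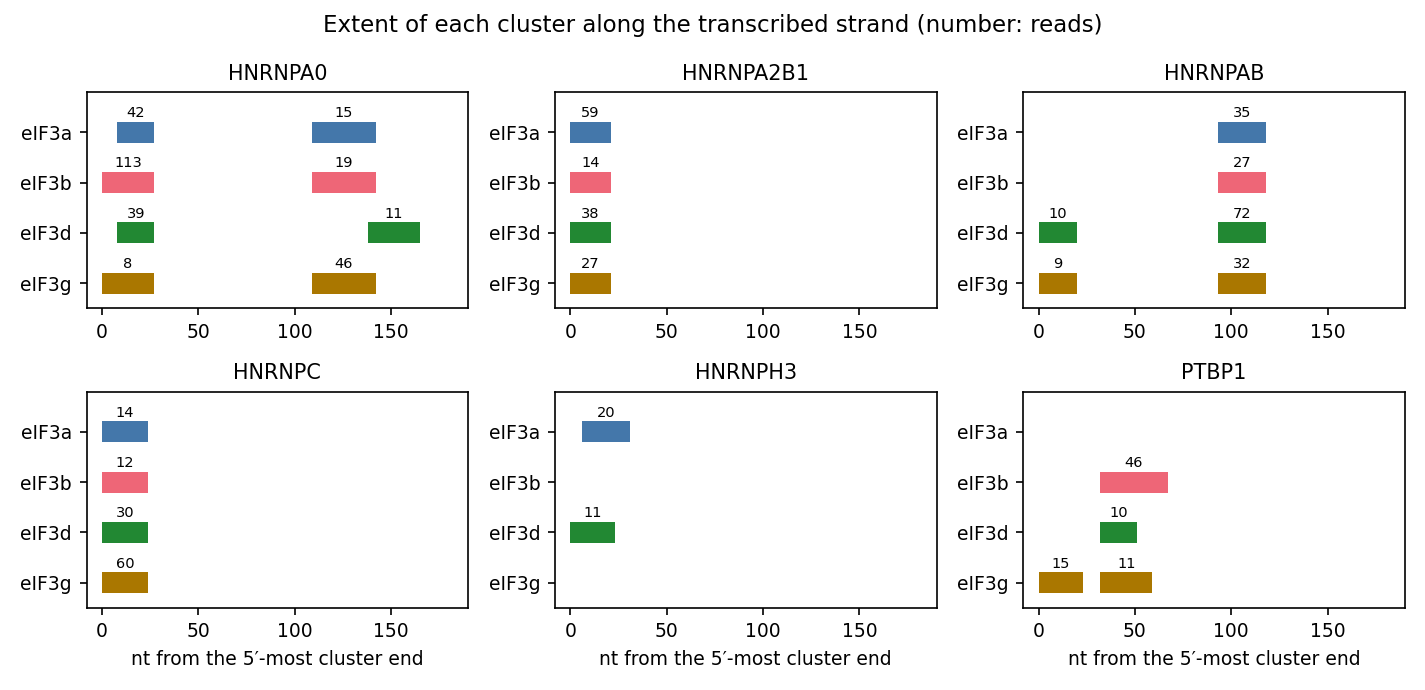
Extent of each cluster of the 6 genes in nt along the transcribed strand, counted from the 5′-most cluster end of the gene, with 1 row per subunit and the reads above each bar. HNRNPA2B1, HNRNPC and HNRNPAB site 2 have the same ends in all 4 subunits, whereas the PTBP1 clusters at site 2 share a start and have 3 different ends.

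Where several subunits were listed, their clusters had the same ends at some sites and shared only part of their bases at others. Of the 5 sites listed in all 4 subunits, those of HNRNPA2B1 (21 nt), HNRNPC (24 nt) and HNRNPAB site 2 (25 nt) had 1 start and 1 end in every subunit. This was so for 33.5% of all 173 such sites of the table. HNRNPA0 site 1 had a common 3′ end at 137089958, and at the 5′ end it was 8 nt longer in eIF3b and eIF3g than in eIF3a and eIF3d. HNRNPA0 site 2 had only 4 nt common to all 4 subunits in a span of 56 nt. Of the sites listed for fewer subunits, HNRNPAB site 1 had the same ends in eIF3d and eIF3g. The HNRNPH3 clusters of eIF3a and eIF3d had 17 nt in common in a span of 31 nt. The PTBP1 clusters at site 2 all started at 797450 and ended at 797469 in eIF3d, 797477 in eIF3g and 797485 in eIF3b. Member clusters were 19 to 35 nt wide with a median of 24, the median of all clusters. Between the sites of a gene lay 82 nt in HNRNPA0, 73 in HNRNPAB and 9 in PTBP1, against a median of 49 nt over 45 gaps between neighbouring 5′ UTR sites of a gene. These are genomic distances, and whether an intron lies between the sites was not determined.

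Set against all genes of a subunit's list, the hnRNP mRNAs held places from low to high, and each had its best place in a different list or shared it with 1 other gene. The percentile of a gene is the share of genes in the list with a weaker strongest cluster, ties split evenly. HNRNPA0 stood at 90.7 in eIF3b (rank 25 of 264), 79.9 in eIF3g, 74.7 in eIF3a and 71.9 in eIF3d. It was the one member above percentile 70 in every list. HNRNPAB stood between 63.3 in eIF3b and 87.8 in eIF3d, HNRNPA2B1 between 34.1 in eIF3b and 84.5 in eIF3a, and HNRNPC between 21.8 in eIF3b and 84.6 in eIF3g. The widths of these ranges were 18.8 points for HNRNPA0, 24.5 for HNRNPAB, 50.4 for HNRNPA2B1 and 62.8 for HNRNPC, against a median of 33.9 over the 161 genes of all 4 subunits. PTBP1 stood at 77.6 in eIF3b, 31.3 in eIF3g and 7.58 in eIF3d. HNRNPH3 stood at 45.4 in eIF3a and 11.9 in eIF3d, below the middle of both lists. The median percentile of the members was 69.4 in eIF3g, 67.8 in eIF3d, 67.4 in eIF3a and 63.3 in eIF3b. By construction the middle of a list is 50, and no test was made of this.

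**Figure D4:**
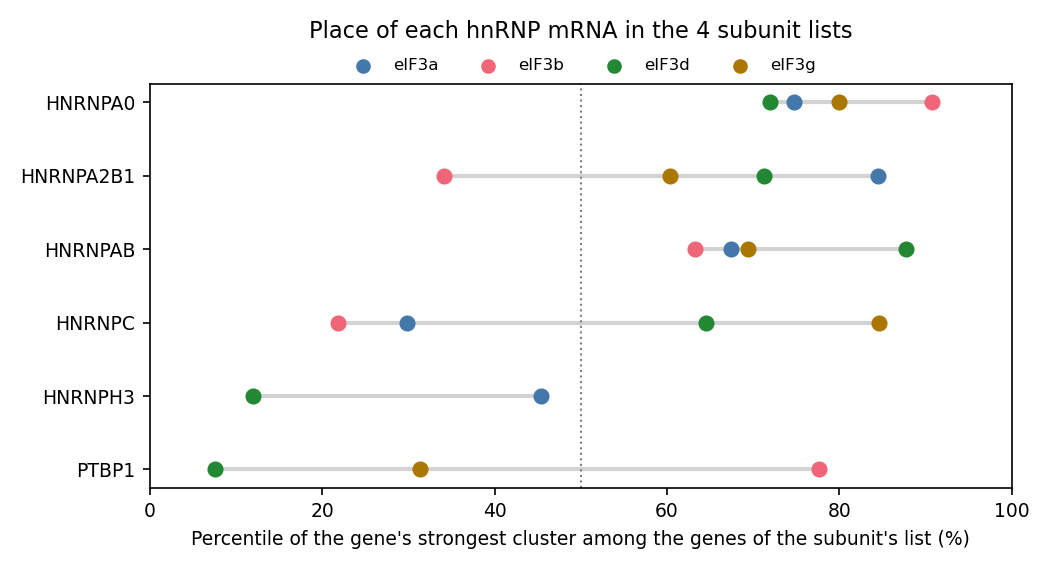
Percentile of each gene's strongest cluster by reads among all genes of a subunit's list, 1 row per gene and 1 point per subunit in which it was listed; the grey bar spans a gene's values. HNRNPA0 and HNRNPAB lie above 50 in every subunit, and PTBP1 spans 7.58 to 77.6.

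At the 5 sites of all 4 subunits the most unscaled reads were in eIF3a for HNRNPA2B1, in eIF3b for HNRNPA0 site 1, in eIF3d for HNRNPAB site 2, and in eIF3g for HNRNPC and HNRNPA0 site 2. Scaled by reads in 5′ UTR clusters these leading subunits were the same. Scaled by all cluster reads, HNRNPC led in eIF3d and HNRNPA0 site 2 in eIF3a, with the other 3 sites as before. Over all 173 such sites, eIF3g had the most unscaled reads at 30.6%, eIF3d at 28.3%, eIF3a at 22.5% and eIF3b at 18.5%. The number of member sites whose ratio lay above the median of all shared sites was 3 of 5 for eIF3b over eIF3a, 2 of 6 for eIF3d over eIF3a and 2 of 5 for eIF3g over eIF3a. It was 3 of 6 for eIF3d over eIF3b, 4 of 6 for eIF3g over eIF3b and 3 of 7 for eIF3g over eIF3d. The farthest from the median was HNRNPA0 site 1, which in eIF3g stood at percentile 0.853 of the ratios to eIF3d, 1.94 of those to eIF3a and 1.93 of those to eIF3b. Its site 2 stood at 93.7, 86.8 and 78.8 in the same comparisons, the first of them between clusters that share 4 nt. Of reads in 5′ UTR clusters the members gave 2.75% in eIF3b, 1.88% in eIF3a, 1.84% in eIF3d and 1.63% in eIF3g. Of all cluster reads they gave 0.333% in eIF3g, 0.915% in eIF3d, 1.2% in eIF3b and 1.22% in eIF3a.

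T-to-C conversions mark the crosslinked uridines, and in the hnRNP clusters they were near 1 per read in 3 subunits and far fewer in eIF3d. In eIF3a the 6 member clusters had 0.929 to 1.07 conversions per read with a median of 1.01, where all clusters of the list had a median of 1.02. In eIF3b the median of 6 clusters was 1.01 and the highest values were 1.37 at HNRNPAB site 2 and 1.30 at HNRNPA0 site 1. In eIF3g the 8 clusters had a median of 1.12, from 0.667 at HNRNPAB site 1 to 1.5 at HNRNPA0 site 1, where 12 conversions were counted in 8 reads. In eIF3d the 8 clusters had 0.0556 to 0.273 with a median of 0.117. The list as a whole had a median of 0.182 and its 5′ UTR clusters 0.2. The members' median in eIF3d stood at percentile 30.0 of all clusters and 21.7 of 5′ UTR clusters. Among 5′ UTR clusters it stood at 50.8 in eIF3a, 40.8 in eIF3b and 65.7 in eIF3g. HNRNPAB site 2 had 4 conversions in 72 reads in eIF3d and 36 in 35 reads in eIF3a. HNRNPC had 4 in 30 reads in eIF3d and 66 in 60 in eIF3g. All 8 member sites listed for eIF3d had their fewest conversions per read there, and so did 97.7% of the 173 sites of all 4 subunits and 100% of the 120 of them in 5′ UTRs. The low eIF3d value was thus shared with nearly all of these 173 sites. Over all clusters of the eIF3d list values reached 1.06. What an eIF3d entry counts is not stated in the sources.

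**Figure D5:**
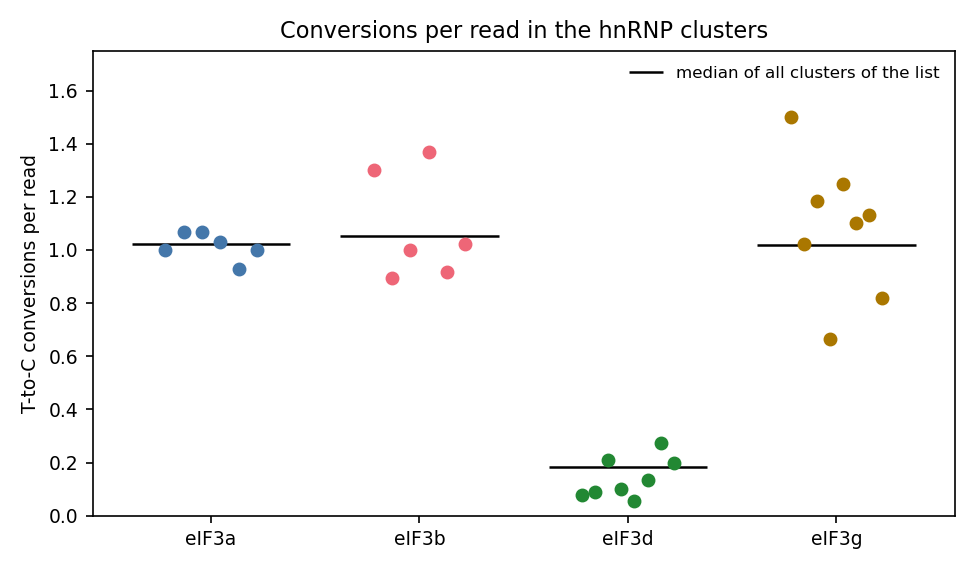
T-to-C conversions per read in each hnRNP cluster by subunit (points, 6, 6, 8 and 8 clusters), with the median of all clusters of that list as a line. The eIF3d points lie between 0.0556 and 0.273, below every point of the other subunits.

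The members were set beside the rest of the hnRNP family and other splicing factors. Of 37 hnRNP genes on a list that spans the family, 9 had a cluster, with 9 listed for eIF3d, 8 for eIF3g, 7 for eIF3a and 6 for eIF3b. Of all 20056 protein-coding genes 2.22% had one, a share that does not separate expressed from silent genes. The 6 members among the 9 were chosen because they were in the table, so these shares are a description and not a test. The group of A/B and D types had 3 of 8 genes, HNRNPC and its relatives 1 of 7, the F/H group 1 of 4, and PTB with hnRNP L 2 of 5. No gene of the M, R and Q or the U groups was listed. The 3 further family genes were PTBP3, PCBP1 and RBMX. PTBP3, the paralog of PTBP1, had 224 reads in 5′ UTR clusters on chromosome 9, minus strand, with its highest value, 114 reads, in eIF3b at 115095779 to 115095800. At that site it had 14 reads in eIF3a, 15 in eIF3g and, in a cluster that shared 6 nt with the others, 11 in eIF3d, and thus, like PTBP1 site 2, its most reads in eIF3b. The other PTBP3 site, from 115060170, held 27 reads in eIF3a, 14 in eIF3d and 29 in eIF3g and was not listed for eIF3b. PCBP1, a poly(C)-binding protein, had 41, 36 and 20 reads in eIF3a, eIF3d and eIF3g at 1 5′ UTR site. RBMX (hnRNP G) differed from the members in place and conversions. Its clusters were intronic, with 1179 reads in eIF3g and 57 in eIF3d and 0.0458 and 0.0175 conversions per read. Whether these reads came from RBMX mRNA or from another RNA made from the intron was not determined. Every other listed family gene had a 5′ UTR cluster. Of 14 SR proteins 4 had a cluster, and of 33 core spliceosome genes 5 did, with 8 of these 9 in the 5′ UTR. SNRPA, a protein of the U1 particle, was the exception, with clusters at the start codon.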

How the data were processed

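The values come from 1 table in which the authors deposited read counts per cluster and subunit, whole numbers without normalization per the file headers, and the number of T-to-C conversions. The 3 replicates of a subunit are pooled there and cannot be separated. Cutadapt, Bowtie, bedtools and hg19 are named, per the submitters' processing notes, with no versions. The cluster caller, its thresholds and whether positions count from 0 or 1 are not given in the sources, and positions are printed as in the table.

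Gene names that differed only in case were joined. Sites are clusters of a strand joined where they shared 1 nt or more. Ratios are differences of log2(reads + 1), read by their place among all sites shared by a pair, since depth is unknown. Intervals are 95% exact Poisson and Wilson intervals, from SciPy 1.17.1 and statsmodels 0.14.6 under Python 3.11.15. Joining and percentiles were tested on simulated data in which sites lay far apart and were in both lists. Joining of close sites, or of clusters that share few bases, was not tested. A width is the end minus the start. Family names were matched through RefSeq symbols and older symbols, and all 37 hnRNP genes were in that reference. Genes named are the 6 members, other genes of the hnRNP and splicing lists, and the nearest patterns by a fixed rule. RHOA was named after its values were seen. The members and lists were chosen with earlier results of these data known. A count test with edgeR and analyses that leave out a replicate need replicate values and were not run.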

Additional observations from a re-analysis of the deposited data

How the results depend on the processing

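Of 47 recomputed summary values 42 kept within 1.5 times of a count, or within the counting interval of a share or ratio. Some of these 42 could not move, so their number is no measure of robustness. Scaling cannot change how many member sites lie above the median ratio. Keeping only 5′ UTR clusters cannot change which members are listed, since all 28 clusters were there. The 5 values that moved were as follows. The median percentile of the members in eIF3g was 75.8 with genes ranked by summed reads and 77.3 with only 5′ UTR clusters ranked. With only clusters at or above the subunit's median reads, 3 of the 6 genes were listed in eIF3a and 3 in eIF3b, where 35.9% and 28.2% of all genes were. In eIF3d and eIF3g 4 each were listed, counted as kept, where 37.8% and 39.5% of all genes were. Summed conversions over summed reads gave 1.18 in eIF3b. Percentiles of ratios do not change with a scaling of a subunit's reads, but the differences themselves do. Scaled by all cluster reads, the median log2 difference of member sites went from -0.13 to -2.17 for eIF3g minus eIF3a, from -0.14 to -1.51 for eIF3g minus eIF3d, from 0.57 to -1.13 for eIF3g minus eIF3b and from 0.26 to -0.07 for eIF3d minus eIF3b. Scaled by reads in 5′ UTR clusters, these were -0.50, -0.22, -0.03 and -0.26, and that of eIF3b minus eIF3a went from -0.21 to 0.02. With an overlap of at least 50% of the shorter cluster, HNRNPA0 site 2 in eIF3d was no longer joined to the other subunits. By summed reads PTBP1 stood at percentile 56.0 in eIF3g in place of 31.3. No paired analysis was possible because the table has no replicate column, and leaving out a replicate was not run for the same reason. Clusters of fewer than 20 reads have intervals wider than their value in some cases, and 12 of the 28 clusters had 15 reads or fewer.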

Other observations

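Genes with the nearest pattern over the subunits were named by the smallest total variation distance between shares of summed reads, among genes with at least 50 reads listed for the same subunits. For PTBP1 these were, of 14 candidates, TAF7, a general transcription factor subunit, with 41, 13 and 19 reads in eIF3b, eIF3d and eIF3g (distance 0.0568), ANK3, an ankyrin, with 70, 13 and 22 (0.107), and ZNF750, a zinc finger protein, with 231, 21 and 76 (0.143). For HNRNPA0 they were, of 155 candidates, SNHG15, a snoRNA host gene, with 105 reads in eIF3b, 48 in eIF3a, 41 in eIF3g and 37 in eIF3d (distance 0.0173), SLC7A1, an amino acid transporter, with 36, 12, 13 and 9 in that order (0.0652), and PTBP3 with 114, 41, 44 and 25 (0.0705). With 4 pooled values per gene such likeness is a description of the table.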
